A study of Mus musculus with 8 samples.

Results

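The cyclin-dependent kinase inhibitors are 8 genes in the mouse: Cdkn1a, Cdkn1b and Cdkn1c of the Cip/Kip family, Cdkn2a, Cdkn2b, Cdkn2c and Cdkn2d of the INK4 family, and Cdkn3, a phosphatase. They were taken by gene identity from the 27179 Entrez genes of the count table, with no use of their levels. Of the 8 genes, 7 were among the 14966 genes with enough reads to be tested, and Cdkn2a was not. RNA was measured by sequencing in neonatal cardiomyocytes (NCMs) of 8 male C57Bl/6 J mice at birth, 4 whose dams had breathed filtered air (FA) and 4 whose dams had breathed diesel exhaust (DE). Exposure ran from embryonic day 0.5 to 17.5, and the labels name no transgene or further agent in either group. Each library came from 1 heart. The ventricles had been digested and the cells plated for a short time with cytosine arabinoside to leave fibroblasts behind, so that the libraries are enriched for cardiomyocytes and not pure. The labels do not say which pups shared a litter, so the p-values measure only the spread between these pups. The study's methods name fewer libraries a group than the 4 used here and do not say which.

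The inhibitors act on the kinases that carry a cell through its division cycle. Cip/Kip proteins bind complexes of cyclins with CDK2, CDK1 and CDK4 or CDK6, while INK4 proteins bind CDK4 and CDK6 alone and keep them from D-type cyclins. Blocked kinases leave the RB proteins in place on E2F factors, which drive the genes of DNA replication. Cdkn3 removes a phosphate that active CDKs need, and its own transcript is known to be made mostly by dividing cells. In the mouse heart, cardiomyocytes leave the cell cycle within days of birth, and p21 (Cdkn1a), p27 (Cdkn1b) and p57 (Cdkn1c) are among the inhibitors known from that time.

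Total counts ran from 17943024 to 39839737 per library. The library labels carry a number, 11 for all FA libraries and for DE replicates 1 and 7, and 12 for DE replicates 3 and 5. What the number stands for is not given, and in the comparison of DE with FA it cannot be fully told apart from exposure. Over all genes, the libraries of a group fell into pairs: by a chi-square of their counts per gene, FA replicates 2 and 4 differed least (5.06), FA replicates 3 and 6 by 18.4, DE replicates 1 and 7 by 16 and DE replicates 3 and 5 by 20.2, against 27.8 to 62.8 for the other pairs within a group. No pair agreed within sampling noise. Without FA replicate 2 or 4, the calls over all genes fell from 868 to 249 or 237. Without DE replicate 3 they fell to 268, without FA replicate 3 to 433 and without DE replicate 5 to 526. They were 826 without FA replicate 6, 706 without DE replicate 7 and 1168 without DE replicate 1. Markers of cardiomyocytes summed to between 57910 and 71430 counts per 1000000 (CPM, scaled for library composition) in every library. Smooth muscle and pericyte markers summed to 1162 to 1817 CPM in FA and 825.7 to 1258 CPM in DE, with 0 of 8 called. Leukocyte markers summed to 12.6 to 18.9 CPM in FA and 15.7 to 24.8 CPM in DE, with 0 of 5 tested called, and mesothelial markers to 109.8 to 144.2 and 105.5 to 147.8 CPM, with 0 of 8 called. Erythroid markers summed to 429.2 to 1023 CPM in FA and 674.4 to 1123 CPM in DE, with 1 of 5 tested, Slc4a1, called higher (in 2 of 8 fits that left out 1 library). For the smooth muscle and pericyte, leukocyte and mesothelial lists, 1 gene each had an unadjusted p under 0.05 in edgeR, and DESeq2 called 1, 1 and 0. No marker measured was at 0 in all libraries.

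The stretches just upstream of Cdkn1a and Cdkn3 are shown, Cdkn1a because it is the textbook p53 target, and Cdkn3 because its level moved with those of Cdkn2c and Cdkn2d between libraries of a group. Windows of 250 bases before a RefSeq transcription start (GRCm38.p6) were searched, and each is printed on the gene's own strand up to the first base of any annotated exon or of the gene's own span. Capitals mark matches on either strand to CCAAT, to the cell cycle homology region (CHR, TTTGAA or TTCGAA), to the GC box (GGGCGG) or to the p53 element. The p53 element was RRRCWWGYYY followed directly by itself, where R is A or G, W is A or T and Y is C or T. For this element alone, 1 mismatch was allowed, and the match shown uses it. The Cdkn1a stretch is chr17:29090729-29090975 (plus strand), and that of Cdkn3 is chr14:46760291-46760460 (plus strand).
Cdkn1a: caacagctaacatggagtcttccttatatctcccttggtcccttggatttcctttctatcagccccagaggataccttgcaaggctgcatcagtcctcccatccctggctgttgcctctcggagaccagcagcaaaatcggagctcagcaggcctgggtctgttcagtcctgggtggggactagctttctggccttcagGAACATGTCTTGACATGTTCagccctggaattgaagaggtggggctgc
Cdkn3: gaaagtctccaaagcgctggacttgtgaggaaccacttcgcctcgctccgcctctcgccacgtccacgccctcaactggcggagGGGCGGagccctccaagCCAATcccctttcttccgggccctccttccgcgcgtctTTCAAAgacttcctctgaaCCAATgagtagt

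The Cdkn1a stretch held a match to the p53 element, from 51 to 32 bases before the upstream start of the gene. A match with at most 1 mismatch was found in 0.0761% of all 32851 windows of 250 bases. The Cdkn3 stretch held 2 CCAAT boxes and 1 CHR, a combination known from genes of mitosis, and 1 GC box. CCAAT was found in 33.8% of all windows, the CHR in 17.1% and the GC box in 32.7%. An E2F motif (TTTGGCGC, TTTCGCGC, TTTCCCGC or TTTGCCGC, in 1.86% of windows) was in neither stretch. The last 80 bases of the Cdkn3 window, which hold a further CCAAT box, lie inside the gene as RefSeq bounds it and are left out. The windows of Cdkn2c and Cdkn2d lie for most of their length inside the gene or in annotated exons, so none is shown. Cdkn1a has a further RefSeq start, inside the gene. Its window (chr17:29093519-29093768) held 2 GC boxes and 0 matches to the p53 element. Cdkn1c had no entry.

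Cdkn1a was the most abundant inhibitor transcript in FA NCMs and Cdkn2a the least. Per kilobase of the longest annotated transcript, Cdkn1a stood at 47.8 ± 6.40 CPM in FA (SD, n = 4, as for all means here). Cdkn2d at 22.3 ± 3.89, Cdkn1c at 21.6 ± 3.78 and Cdkn1b at 16.0 ± 2.20 CPM per kilobase formed a middle tier. Within this tier the library ranges of neighbours overlapped. Cdkn2c at 5.82 ± 0.521 and Cdkn3 at 3.78 ± 0.714 CPM per kilobase came next, without overlap between their ranges. Cdkn2b followed at 0.550 ± 0.0456 and Cdkn2a at 0.0667 ± 0.0414 CPM per kilobase.

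In DE, by the same length, Cdkn1c took the place below Cdkn1a. Its level per kilobase was 38.7 ± 3.29 CPM, against 60.5 ± 8.27 for Cdkn1a and 32.3 ± 7.44 for Cdkn2d, and the ranges of Cdkn1c and Cdkn2d overlapped. Cdkn1b was at 14.4 ± 1.35, Cdkn2c at 7.21 ± 0.471 and Cdkn3 at 4.94 ± 0.732 CPM per kilobase. Cdkn1c made up 16.4% to 19.7% of the summed level per kilobase of the 8 genes in FA and 20.3% to 26.5% in DE. The share of Cdkn1b ran from 11.1% to 16.9% in FA and from 7.67% to 10.9% in DE. Shares of a sum are not independent of each other. The order rests on the transcript chosen: with the median transcript length, Cdkn1c (61.5 CPM per kilobase) and Cdkn1b (30.3) stood above Cdkn2d (25.1) in FA. In DE, with that length, Cdkn1c (110.3, range 99.8 to 122.3) stood above Cdkn1a (107.4, range 88.5 to 121), with overlapping ranges. The mean share of Cdkn1c then was 28.1% in FA and 36.6% in DE, against 18.3% and 24.5% with the longest transcript.

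**Figure D1:**
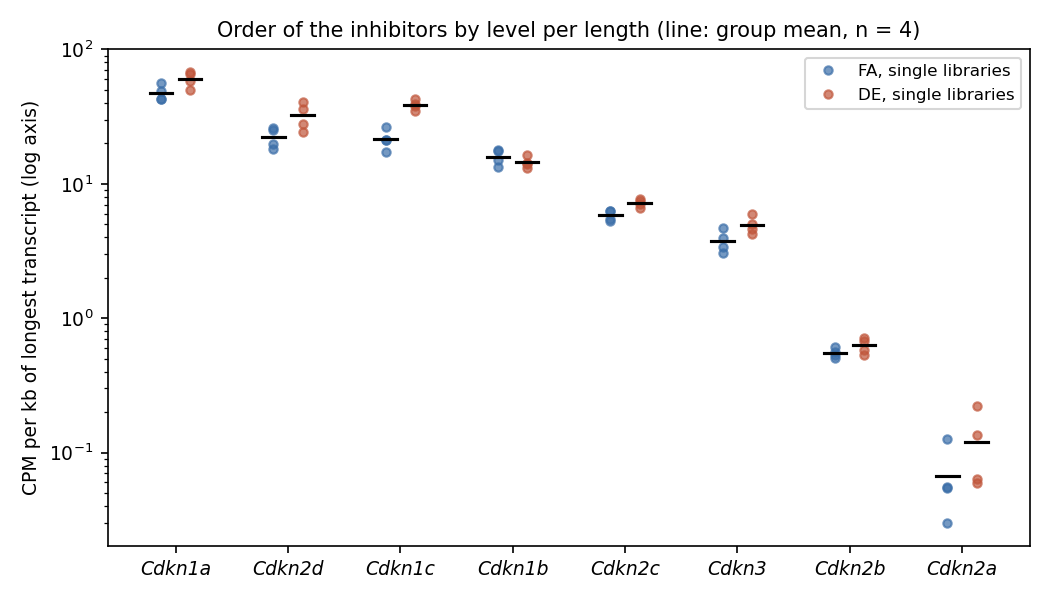
Level of each inhibitor in CPM per kilobase of its longest transcript (log axis), with a point per library for FA and DE. Cdkn1a lies highest, from 42.9 to 56.4 in FA, and Cdkn1c lies at 17.3 to 26.5 in FA and 35.0 to 42.9 in DE.

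Of the 7 tested inhibitors, Cdkn1c rose in DE and none fell at the threshold used throughout: a Benjamini-Hochberg adjusted p of at most 0.05 in edgeR's quasi-likelihood test and a difference of at least 25%. Over all tested genes, 5.80% were called in either direction and 3.58% were called higher. Of the other members, 5 had higher fitted means in DE and 1, Cdkn1b, a lower one, and none of these passed. The median log2 fold change of the 7 was 0.34, against 0.0037 over all tested genes. The CPM ranges of FA and DE did not overlap for 2 of the 7, Cdkn1c and Cdkn2c, beside 14.7% of all tested genes. In these bulk samples, fewer cells of a type and less RNA per cell cannot be told apart.

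**Figure D2:**
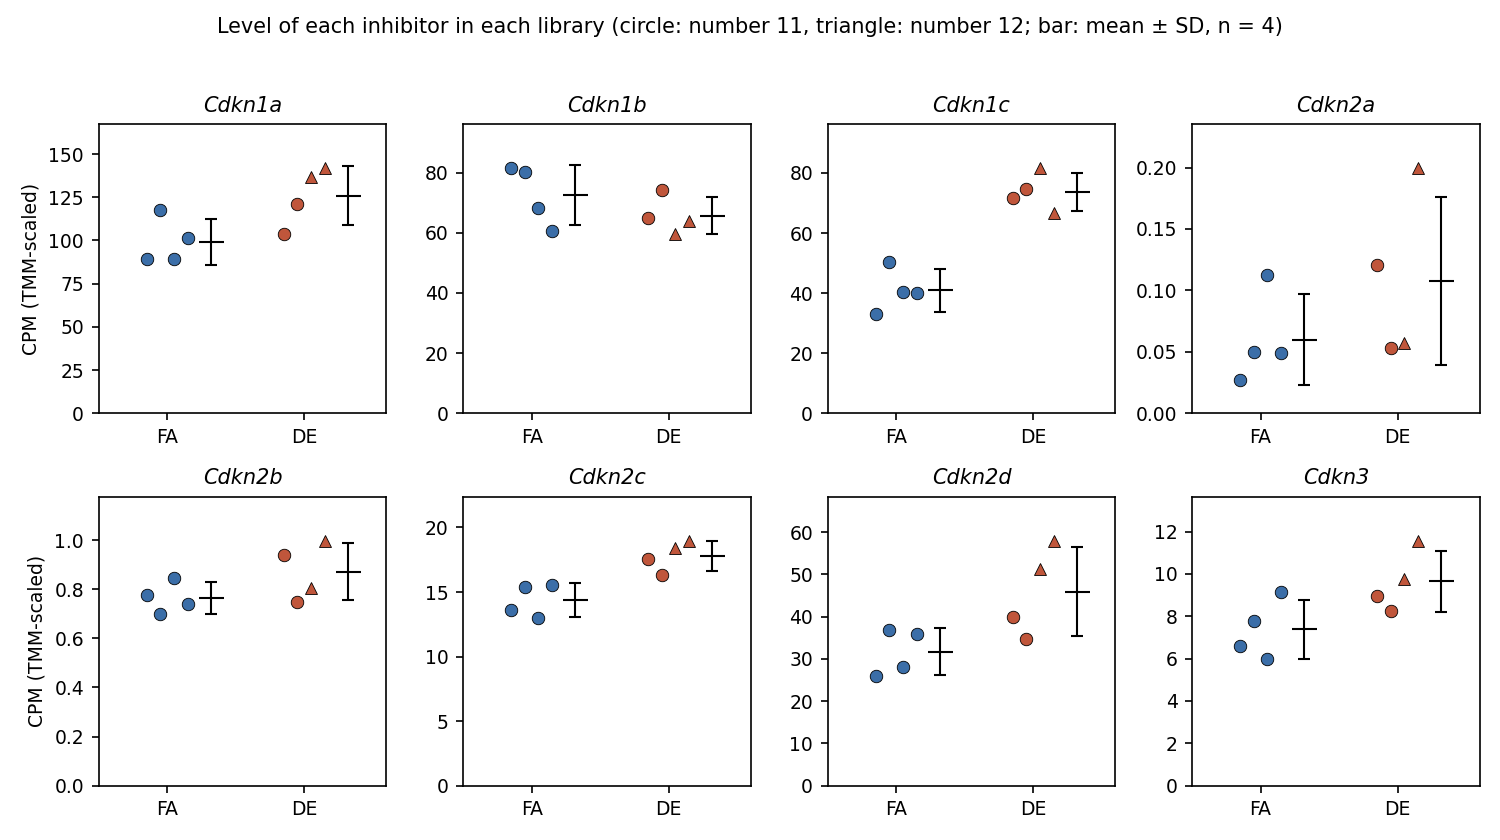
CPM of each inhibitor in the 4 FA and 4 DE libraries, with the group mean and SD; circles carry the number 11 and triangles the number 12. The FA and DE points are apart for Cdkn1c (32.9 to 50.4 against 66.6 to 81.6 CPM) and for Cdkn2c.

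Cdkn1c (chr7:143458339-143461059), an imprinted gene read from the maternal allele, encodes p57, which binds cyclin and CDK complexes and restrains growth in the embryo. It stood at 32.9, 50.4, 40.5 and 40.2 CPM in FA replicates 2, 3, 4 and 6. It stood at 71.7 and 74.5 CPM in DE replicates 1 and 7 and at 81.6 and 66.6 CPM in DE replicates 3 and 5. Every DE library lay above every FA library. The means were 41.0 ± 7.19 CPM in FA and 73.6 ± 6.26 CPM in DE, a fold difference of 1.80 with a 95% interval of 1.48 to 2.19. The log2 fold change was 0.85 (SE 0.13, edgeR adjusted p = 0.00541), and Cdkn1c ranked 97 by p among all tested genes. The call held whichever library was left out. An antisense gene, Gm44732, overlaps Cdkn1c by 892 bases, and since the strand setting of the counting is not given, reads of the pair cannot be told apart.

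Markers of fibroblasts moved in the same direction. All 8 had higher fitted means in DE and 2 were called, Col1a1 (log2 fold change 0.95) and Dcn (0.56), the latter in 2 of 8 fits that left out 1 library. With DESeq2 or the likelihood ratio test 6 of the 8 were called, and with 1 surrogate variable or with offsets for length and GC content 7. Their summed level was 2008 to 3461 CPM in FA and 3655 to 6177 CPM in DE, without overlap. Within FA the order was another: replicate 3, with the lowest fibroblast sum (2008 CPM), had the highest Cdkn1c level (50.4 CPM). Within DE, replicate 1 had the highest fibroblast sum (6177 CPM) and a Cdkn1c level of 71.7 CPM, below replicates 3 and 7. The other DE replicates had the same order in both measures, with fibroblast sums of 3655, 4534 and 4698 CPM and Cdkn1c levels of 66.6, 74.5 and 81.6 CPM in replicates 5, 7 and 3. Cardiomyocyte markers summed to 66600 to 71430 CPM in FA and 57910 to 67370 CPM in DE, with Myh6 (-0.67) and Pln (-0.38) called lower and Myh7 (0.53) higher, of which Pln kept its call in 2 of 8 fits that left out 1 library. Endothelial markers summed to 967.9 to 1283 CPM in FA and 1048 to 1559 CPM in DE. Of these 8, 7 had higher fitted means in DE (median 0.27), 4 had an unadjusted p under 0.05 and 0 were called in edgeR's test, while 2 were called with DESeq2, the likelihood ratio test, 1 surrogate variable, or without FA replicate 6. The part of other cell types in the Cdkn1c difference was not tested.

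Cdkn1a (chr17:29090979-29100722) encodes p21, which halts the cycle after DNA damage through p53. It stood at 89.4, 117, 89.3 and 101 CPM in FA replicates 2, 3, 4 and 6. In DE it stood at 104 and 121 CPM in replicates 1 and 7 and at 137 and 142 CPM in replicates 3 and 5. The groups overlapped, since FA replicate 3 lay above DE replicate 1, and the DE replicates with the number 12 were the highest. The means were 99.4 ± 13.3 and 125.9 ± 17.2 CPM, with a log2 fold change of 0.34 (SE 0.13, interval 0.06 to 0.62, edgeR adjusted p = 0.127), which did not pass. A gene on the opposite strand, AC167363.2, overlaps Cdkn1a by 1046 bases, with the same limit on telling reads apart as for Cdkn1c.

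Cdkn1b (chr6:134920401-134925525) encodes p27, a brake on CDK2 that is controlled largely by protein breakdown. Its levels were 81.4, 80.2, 68.3 and 60.5 CPM in FA replicates 2, 3, 4 and 6. They were 64.9, 74.3, 59.7 and 64.0 CPM in DE replicates 1, 7, 3 and 5. The groups overlapped over most of their range. The log2 fold change was -0.15 (SE 0.12, interval -0.40 to 0.11, edgeR adjusted p = 0.461), which did not pass.

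Among the INK4 genes, Cdkn2d (chr9:21288459-21291421) had the largest fitted difference of those tested. It encodes p19Ink4d, which binds CDK4 and CDK6. Levels were 25.9, 36.9, 28.0 and 36.0 CPM in FA replicates 2, 3, 4 and 6. In DE they were 39.9 and 34.6 CPM in replicates 1 and 7 and 51.2 and 58.0 CPM in replicates 3 and 5. The DE libraries with the number 12 stood above all others, while DE replicate 7 lay within the FA range. The means were 31.7 ± 5.53 and 45.9 ± 10.6 CPM, a fold difference of 1.45 (95% interval 1.12 to 1.89, edgeR adjusted p = 0.0864), which did not pass. It was called under 4 of 22 alternatives, DESeq2 among them. Kri1 lies 441 bases away on the same strand.

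Cdkn2c (chr4:109660876-109666756) encodes p18Ink4c, another inhibitor of CDK4 and CDK6. It stood at 13.6, 15.4, 13.0 and 15.5 CPM in FA replicates 2, 3, 4 and 6. It stood at 17.6, 16.3, 18.4 and 18.98 CPM in DE replicates 1, 7, 3 and 5. Every DE library was above every FA library, by a narrow margin between FA replicate 6 and DE replicate 7. The log2 fold change was 0.31 (SE 0.11, interval 0.08 to 0.55, edgeR adjusted p = 0.103), and it did not pass.

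The Cdkn2a and Cdkn2b genes, neighbours on chromosome 4, were at the edge of detection. Cdkn2b (chr4:89306289-89311032), which encodes p15, stood at 0.775, 0.698, 0.847 and 0.738 CPM in FA replicates 2, 3, 4 and 6. In DE replicates 1, 7, 3 and 5 it stood at 0.938, 0.746, 0.803 and 0.998 CPM, overlapping with FA. With 186 counts over the 8 libraries, its log2 fold change was 0.20 (interval -0.26 to 0.67, edgeR adjusted p = 0.569), which did not pass. Cdkn2a (chr4:89274473-89294619) encodes p16Ink4a and p19Arf from different first exons, which a count per gene cannot separate. Its counts were 1, 1, 2 and 1 in FA replicates 2, 3, 4 and 6 and 4, 1, 2 and 8 in DE replicates 1, 7, 3 and 5. The 15 reads in DE against 5 in FA gave a depth-adjusted ratio of 2.26, with an exact 95% interval of 0.781 to 7.95 that covers counting error only. Exact permutation of the library labels, two-sided, gave p = 0.171 on log2(CPM + 0.5), where 4 against 4 libraries can reach 0.0286.

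Cdkn3 (chr14:46760461-46771530), the phosphatase that acts on CDKs, stood at 6.60, 7.77, 5.98 and 9.15 CPM in FA replicates 2, 3, 4 and 6. It stood at 8.96, 8.26, 9.78 and 11.6 CPM in DE replicates 1, 7, 3 and 5. The groups overlapped, with FA replicate 6 above DE replicates 1 and 7. The log2 fold change was 0.39 (SE 0.16, interval 0.04 to 0.74, edgeR adjusted p = 0.155), which did not pass.

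The DE libraries were also split by the number in their names. Each set of DE libraries was compared with the same 4 FA libraries in 1 model with 3 groups. Cdkn1c stood at means of 73.1 CPM in the DE libraries with 11 and 74.1 CPM in those with 12. Its log2 fold change over FA was 0.84 with 11 (edgeR adjusted p = 0.0138) and 0.86 with 12 (edgeR adjusted p = 0.00410). The difference between the 2 sets of DE libraries was 0.02 (interval -0.37 to 0.41). Cdkn1c was the 1 member called with 11, where 2.99% of all tested genes were called.

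With the number 12, 5 of the 7 were called against FA, beside 23.4% of all tested genes. These were Cdkn2d (0.79), Cdkn1c, Cdkn3 (0.54), Cdkn1a (0.49) and Cdkn2c (0.38). For the same genes with the number 11, the log2 fold changes were 0.24 for Cdkn2d, 0.23 for Cdkn3, 0.18 for Cdkn1a and 0.24 for Cdkn2c, and none of them passed. The 2 sets of DE libraries, compared directly, gave no call among the members, beside 2.06% of all tested genes. The largest such difference was that of Cdkn2d, from a mean of 37.3 CPM with 11 to 54.6 CPM with 12 (log2 0.55, interval 0.16 to 0.93, edgeR adjusted p = 0.105). With 2 libraries a set and no FA library with the number 12, exposure and number cannot be told apart in the comparison of those libraries with FA.

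**Figure D3:**
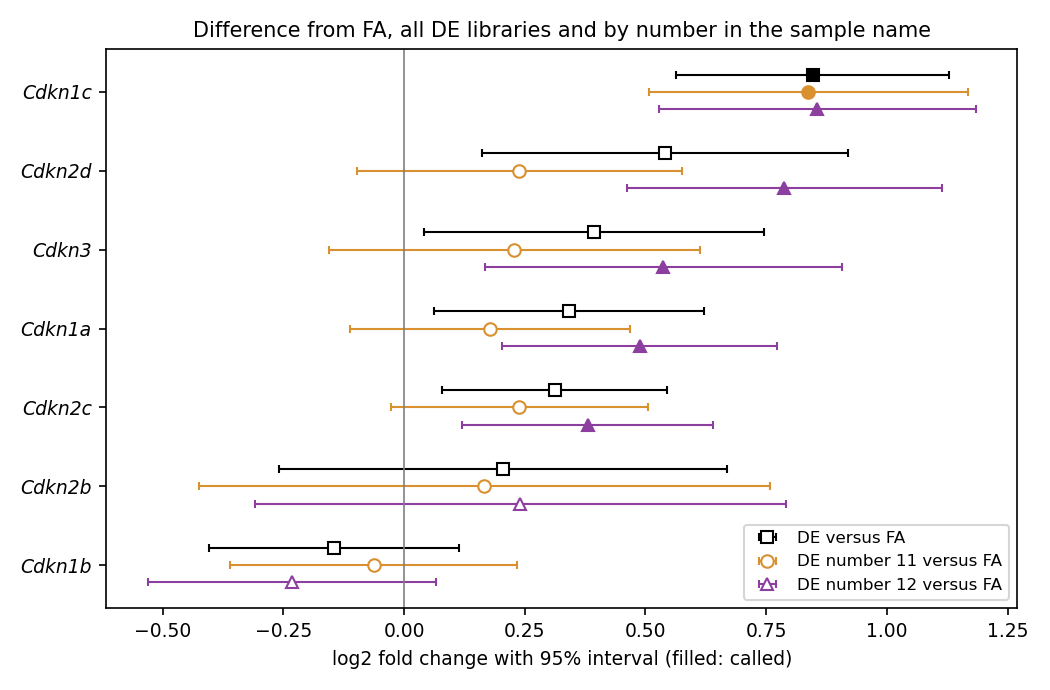
Log2 fold change against the 4 FA libraries for all DE libraries, for the DE libraries with the number 11 and for those with 12, with 95% intervals; filled points were called. Cdkn1c lies at 0.85, 0.84 and 0.86, while Cdkn2d lies at 0.54, 0.24 and 0.79.

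Within a group, the levels of Cdkn2c, Cdkn2d and Cdkn3 moved together. As deviations of log2 CPM from the mean of the group, over all 8 libraries, Pearson's r was 0.942 for Cdkn2c with Cdkn3, 0.909 for Cdkn2c with Cdkn2d and 0.868 for Cdkn2d with Cdkn3. FA replicates 3 and 6 and DE replicates 3 and 5 lay above their group mean for all 3 genes, and the other 4 libraries below. These are the pairs into which the libraries fell over all genes, and genes outside the family followed these 3 with r of up to 0.993, so the co-movement is not shown to be particular to the inhibitors. Cdkn1a followed the same libraries, with r of 0.807 to Cdkn2d, 0.721 to Cdkn2c and 0.661 to Cdkn3. Cdkn1b ran the other way, with r of -0.496 to Cdkn2d, -0.492 to Cdkn3 and -0.412 to Cdkn2c, and Cdkn1c was less close to Cdkn1a, at 0.534. These values describe 8 points that share library, depth and name number, so they carry no p. The sequences shown above were not used for them, and any link to them was not tested.

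**Figure D4:**
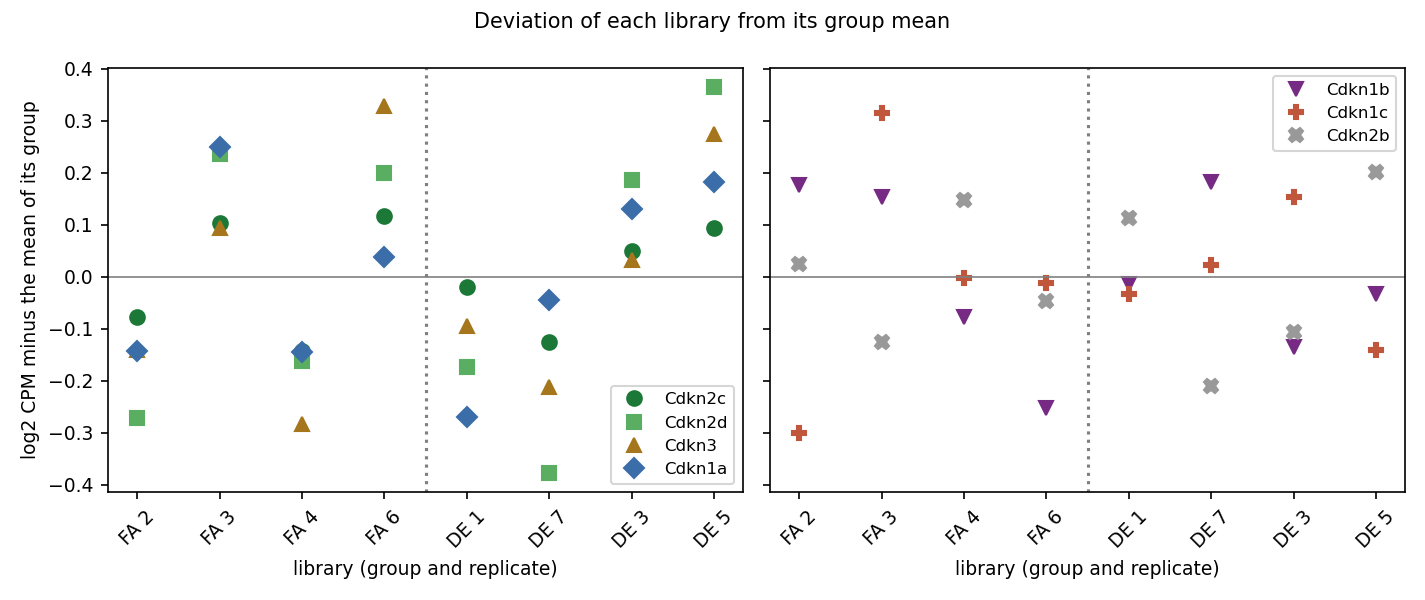
Deviation of log2 CPM from the group mean in each library, for Cdkn2c, Cdkn2d, Cdkn3 and Cdkn1a (left) and for Cdkn1b, Cdkn1c and Cdkn2b (right). The 4 genes of the left panel rise and fall in the same libraries, with r of 0.661 to 0.942 between pairs of them.

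The kinases, cyclins and factors that the inhibitors act on were higher in part. Of 12 CDKs and cyclins, 4 rose and none fell, with a median log2 fold change of 0.33. Ccnd1, the cyclin that INK4 proteins compete with, went from 36.5 ± 5.09 to 66.5 ± 9.13 CPM (log2 fold change 0.87, edgeR adjusted p = 0.00493). Ccne1 (0.81), Cdk1 (0.63) and Ccna2 (0.46) rose too. Cdk4 (0.38, edgeR adjusted p = 0.113), Cdk6 (-0.75, edgeR adjusted p = 0.258) and Cdk2 (0.24, edgeR adjusted p = 0.117) did not pass, nor did Ccnd2 (-0.25) and Ccnd3 (0.38). Of 11 genes of the RB and E2F family, 4 rose: E2f1 (1.21), E2f8 (0.78), E2f2 (0.77) and Rbl1 (0.59). All 14 S phase genes rose, among them Pcna (0.73), the helicase subunits Mcm2 (0.72), Mcm3 (0.83), Mcm4 (0.50), Mcm5 (0.82), Mcm6 (0.88) and Mcm7 (0.59), their loading and firing factors Cdc6 (0.72), Cdt1 (0.74) and Cdc45 (0.75), and Rrm1 (0.55), Rrm2 (0.68) and Tyms (0.48) of nucleotide synthesis. Of 14 genes of G2 and mitosis, 4 rose, Aurkb (0.73), Birc5 (0.64), Nusap1 (0.53) and Bub1 (0.52). Mki67, a general mark of cycling cells, did not pass (0.26, edgeR adjusted p = 0.342). With FA replicate 2 left out, 8 of the S phase genes and 1 of those of G2 and mitosis were called, with FA replicate 4 left out 9 and 1, and with the libraries of number 11 alone 6 and 0. Ccnd1, Ccne1, E2f1, E2f8 and Aurkb kept their calls whichever library was left out, Cdk1 lost it without FA replicate 4, Birc5, Nusap1 and Bub1 lost theirs without FA replicate 2 or 4, and Ccna2, E2f2 and Rbl1 lost theirs without either of these or some other libraries. In the libraries of number 11 alone, 1 of the CDKs and cyclins, Ccnd1, and 2 of the RB and E2F family, E2f1 and E2f8, were called. Median log2 fold changes were 0.73 for S phase and 0.31 for G2 and mitosis, so the fitted difference of Cdkn1c (0.85) lay above both medians and that of Cdkn3 (0.39) above the second. The summed fibroblast markers were also higher in DE without overlap, and the part of other cell types in these cell cycle differences was not tested.

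Among 60 tested regulators of the inhibitors and other p53 targets, 3 were called, which is 5% and near the 5.80% of all tested genes. Of 12 genes of the ubiquitin ligases that mark Cip/Kip proteins for breakdown, Dtl rose (0.69, edgeR adjusted p = 0.0222) and Cul4a fell (-0.42, edgeR adjusted p = 0.0190), both parts of the ligase that acts on p21 and other proteins in S phase. Their median was -0.07. Skp2, which targets p27, and its helper Cks1b did not pass (0.35, edgeR adjusted p = 0.168, and 0.45, edgeR adjusted p = 0.0770). None of 14 activators of inhibitor transcription (median -0.04) and none of 14 repressors (median 0.04) was called in edgeR's test, where 3 and 1 had an unadjusted p under 0.05. DESeq2 and the likelihood ratio test each called 2 activators and 0 repressors, and the fit with 1 surrogate variable 3 and 0. Meis1, a factor known to activate inhibitors in postnatal cardiomyocytes, had a difference of -0.37 (edgeR adjusted p = 0.0639) and Cebpa one of 0.80 (edgeR adjusted p = 0.0782). Trp53 itself stood at 0.16, and Bmi1, of the Polycomb complex that silences Cdkn2a, at -0.33 (edgeR adjusted p = 0.168). Phc1, also a Polycomb gene, stood at 0.17 (edgeR adjusted p = 0.311). Of 20 other p53 target genes, Rrm2b fell (-0.46, edgeR adjusted p = 0.0453) and no other was called, with 15 higher and 5 lower in their fitted means and a median of 0.16. DESeq2 and the likelihood ratio test each called 3 of these, and the fit with 1 surrogate variable 4. Of 8 fits that left out 1 library, Dtl and Cul4a each kept their call in 5 and Rrm2b in 2. Each of these genes lost its call without FA replicate 2 or FA replicate 4, among other libraries. Fas (0.53) and Bbc3 (0.63) both had an edgeR adjusted p of 0.0535, and Mdm2, the feedback target, a difference of -0.07.

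Of the imprinted genes around Cdkn1c, 2 rose. They were H19, from 1977 ± 262.8 to 3090 ± 317.2 CPM (log2 fold change 0.64, edgeR adjusted p = 0.0139), and Igf2, from 2149 ± 90.3 to 2818 ± 199.8 CPM (0.39, edgeR adjusted p = 0.0345). H19 lost its call without FA replicate 4, and Igf2 kept its call in 2 of 8 fits that left out 1 library. With the name number as a term, or with the libraries of number 11 alone, 0 of these imprinted genes were called. H19 and Igf2 are controlled by another imprinting centre than Cdkn1c. Kcnq1ot1, the long RNA of the centre that controls Cdkn1c, went from 13.4 ± 3.25 to 11.0 ± 2.62 CPM (-0.29, edgeR adjusted p = 0.382). Phlda2, like Cdkn1c a restraint on growth, had too few reads to be tested. The median of the 10 tested of 12 was 0.11. Immediate early genes, which mark handling of the cells, gave 0 calls in 10 in edgeR, with a median of 0.06, and 0 in DESeq2. In edgeR 1 had an unadjusted p under 0.05. With 1 surrogate variable, or with offsets for length and GC content, 1 of the 10 was called. The smallest p values among them were those of Ier2 (0.41, edgeR adjusted p = 0.119) and Junb (0.32, edgeR adjusted p = 0.212). In all, 121 of the 123 genes of the 9 lists on the inhibitors' pathways were tested, of which 29 rose and 2 fell, and without FA replicate 4 the 31 calls became 14.

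**Figure D5:**
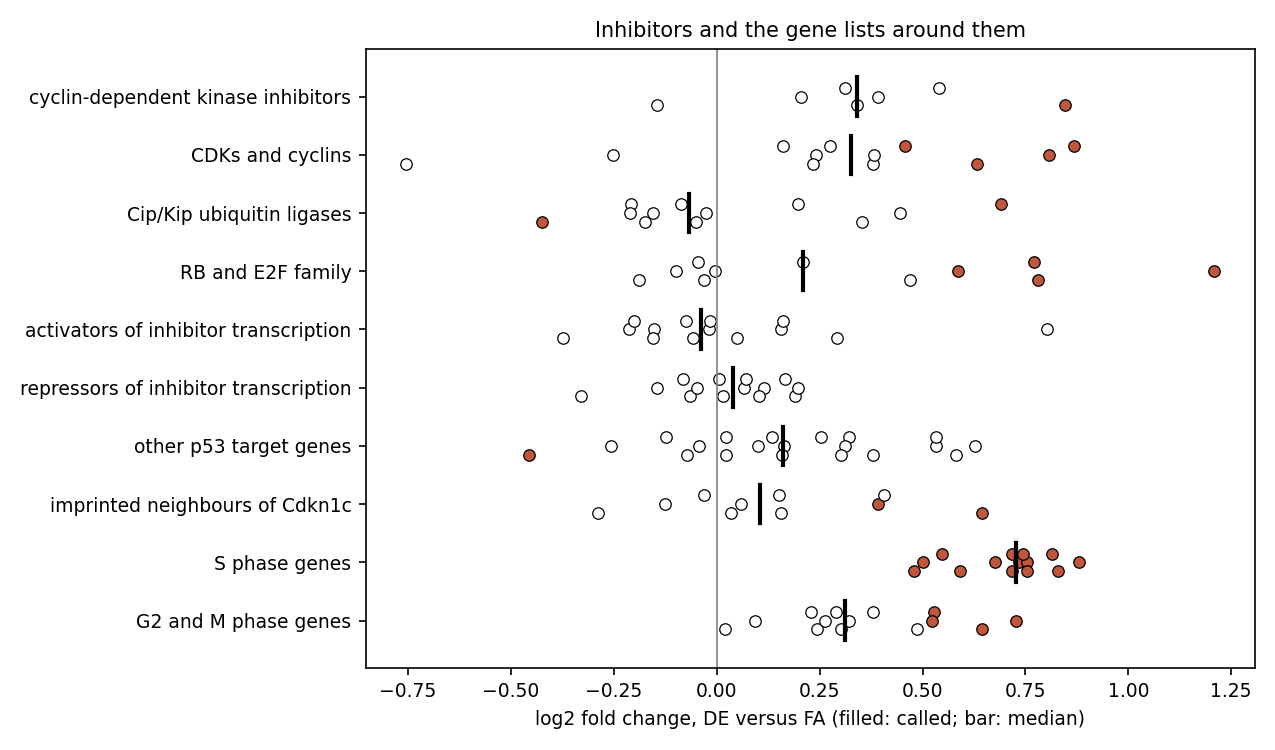
Log2 fold change of DE over FA for every tested gene of the lists, with a point per gene (filled where called) and a bar at the median. The 14 S phase genes lie to the right of 0 with a median of 0.73, and the activators and repressors of inhibitor transcription lie around 0.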

How the data were processed

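RNA-seq of NCMs from 4 FA and 4 DE pups was used. The authors made poly-A libraries, aligned reads with Tophat to mm10 with the Ensembl v67 transcriptome, marked duplicates without removing them, and deposited raw counts per gene from featureCounts. The strand setting and annotation of the counting are not given in the sources used here. Duplicates kept in the counts make counting intervals too narrow.

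Counts were tested with edgeR 4.0.16 in R 4.3.3 (filterByExpr at 10 counts, TMM, quasi-likelihood, exposure as the only term) over all 14966 genes, and p-values were adjusted over these. Calls needed an adjusted p of 0.05 and a 25% difference. Groups came from the labels. The members, the gene lists and the rule for named genes (all members, the called genes and the 2 of smallest p of each pathway list and of the immediate early genes, plus listed defining genes) were chosen with earlier results of these data known. Marker genes named were the called ones. Of the genes under this rule, 1 is not reported here. Alternatives used limma 3.58.1, DESeq2 1.42.0 and sva 3.50.0. The model was checked on simulated counts. Bisulfite and other assays of the study were not used here.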

Additional observations from a re-analysis of the deposited data

How the results depend on the processing

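Under 22 alternatives, Cdkn1c was called every time, with a log2 fold change of 0.66 to 0.96. The count of called members was 1, and 2 with the likelihood ratio test, DESeq2, 1 surrogate variable, and offsets for length and GC content, where Cdkn2d was added (log2 fold change over all alternatives 0.23 to 0.65). Cdkn2b turned to -0.022 with those offsets (edgeR adjusted p = 0.959). Leaving out 1 library in turn, the count of called members stayed at 1, calls over all genes from 237 (without FA replicate 4) to 1168 (without DE replicate 1), and calls in the pathway lists from 14 to 32. Against 868 calls over all genes, there were 1603 with the likelihood ratio test, 1633 with DESeq2, 2015 with 1 surrogate variable, 1539 with the offsets, 448 with the name number as a term, 260 in the libraries with the number 11 alone, and 114 with the 25% margin built into the test. The last 2 gave 11 and 6 calls in the pathway lists, against 31. Scaled by library totals alone, 78.7% of calls were higher, against 61.8%, and with the 25% margin built in 38.6% were (44 higher and 70 lower). The offsets, and the fit of the same genes without them (846 calls), were chosen after seeing the data. With the median transcript length, FA levels per kilobase were 84.8 for Cdkn1a, 61.5 for Cdkn1c, 30.3 for Cdkn1b, 25.1 for Cdkn2d, 8.07 for Cdkn3, 8.04 for Cdkn2c and 0.0683 for Cdkn2a. The cause of these moves was not tested. No paired analysis was possible because the groups share fewer than 2 replicate numbers. With 4 pups a group and unknown litters, differences under 25% were not calls by construction, and Cdkn2a (5 counts in FA and 15 in DE) and Cdkn2b (186 in all) had the fewest counts of the members.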

Other observations

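Among tested genes of at least 5 CPM, the 3 whose deviations from the group mean were most like a member's over the 8 libraries are given by Pearson's r. For Cdkn1a they were Raly (0.993), Psme2 (0.992) and Amacr (0.991). For Cdkn1b they were Casc3 (0.986), Gjc1 (0.984) and Frrs1 (0.948). For Cdkn1c they were Syf2 (0.941), Alg5 (0.937) and Irf2bp1 (0.936). For Cdkn2c they were Dalrd3 (0.993), Coq4 (0.987) and Zmat5 (0.985). For Cdkn2d they were Oaz1-ps (0.992), Lhpp (0.991) and Pnck (0.989), and for Cdkn3 they were U2af1l4 (0.986), Itgb3bp (0.986) and Acat2 (0.983). These are the highest of 10707 genes searched, over 8 points that share library and depth, and are a description. Cdkn2a and Cdkn2b, below 5 CPM, were not compared.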
